A study of Mus musculus with 5 samples.

Results

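CaM kinases and calcineurin are the enzymes through which neurons read calcium, and 10 of their genes were followed here in the brain of very old mice. Brain RNA was sequenced from 5 male C57BL/6 mice, an inbred strain, aged 30 months. They form 1 group with no younger, female or treated animals. Each mouse is called by the number its label carries: 7, 8, 9, 10 or 11. The labels say only "brain", so the region or hemisphere taken is not given in the sources used here. The 10 genes were chosen by name: the 4 CaMKII genes Camk2a, Camk2b, Camk2d and Camk2g, the CaMKIV gene Camk4, the CaMKK genes Camkk1 and Camkk2, and the calcineurin genes Ppp3ca, Ppp3cb and Ppp3r1. All 10 were found in the deposited table of 47729 genes, and all 10 belong to the 16318 genes whose mean count reached 10. The design holds no contrast, so the questions are how much of each gene was present, how its levels compared with those of its relatives, and how far the mice differed. The labels do not say how far the samples were handled independently, and the spread behind every SD and p-value may therefore be technical to some degree.

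As background, a rise in calcium loads calmodulin, a small calcium sensor, which then binds and activates both groups of enzymes. CaMKII is a large ring-like kinase assembled from the products of its 4 genes. It can phosphorylate its own subunits and stay active after calcium has fallen, and it is one of the most abundant proteins of excitatory synapses. CaMKK1 and CaMKK2 phosphorylate and activate CaMKIV, a mainly nuclear kinase that acts on the transcription factor CREB, and CaMKK2 also activates the energy sensor AMPK. Calcineurin opposes many of these kinases. It is a phosphatase with a catalytic A subunit (mainly Ppp3ca or Ppp3cb in brain) and a calcium-binding regulatory B subunit (Ppp3r1). It dephosphorylates the NFAT transcription factors and proteins of synaptic vesicle recycling.

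The libraries held between 15392006 and 18723390 counts, the most in mouse 11. Genes with any count numbered 24708, 23688, 23285, 22787 and 22686 in mice 7 to 11. Mice 7 and 11 thus lay at the ends of this range, and whether that bears on their differences was not tested. The 10 genes had between 1395 and 60380 counts in a library, so that counting error was small beside the larger differences described. It was not small beside close values, such as those of Camk2b, Camk2g and Camkk2 in mice 7 and 8. Levels are given as CPM (counts in proportion to the library's total, on the usual per-megaread scale) or, wherever genes are compared with each other, as RPKM (CPM per kilobase of gene length). Both use each library's own total. The error given with ± is the SD between mice, always with n = 5. In bulk tissue, fewer cells of a type and less RNA per cell cannot be told apart. Neuronal RNA in the samples was checked with 10 pan-neuronal markers, among them Snap25, Syt1 and Rbfox3. None was at 0 in any library, and their summed level lay between 6357 and 6992 CPM. No other tissue was compared, so these markers do not by themselves establish that the tissue is brain.

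Camk2a was the most abundant of the 10 genes, and Ppp3r1 the second. Camk2a, the alpha subunit of CaMKII and the form typical of forebrain excitatory neurons, had 277, 301, 349, 324 and 432 RPKM in mice 7, 8, 9, 10 and 11, a mean of 337 ± 59.7. Only 50 of the 16318 genes ranked above it, which placed it at rank 51. Ppp3r1, the regulatory B subunit of calcineurin, had 229, 286, 323, 271 and 280 RPKM, a mean of 278 ± 33.7 and rank 68. Camk2a was above Ppp3r1 in 5 of 5 mice, by 1.05 to 1.54-fold. Next came Ppp3ca with 116 ± 12.9 RPKM, Camk2g with 100.3 ± 6.67, Ppp3cb with 86.8 ± 10.4 and Camk2b with 81.9 ± 11.3, and these lay close together. Camkk1 had 43.5 ± 4.78 RPKM and Camkk2 22.3 ± 2.50. At the lower end stood Camk4 with 14.1 ± 6.76 and Camk2d with 7.51 ± 0.766 RPKM, which was rank 6219.

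**Figure D1:**
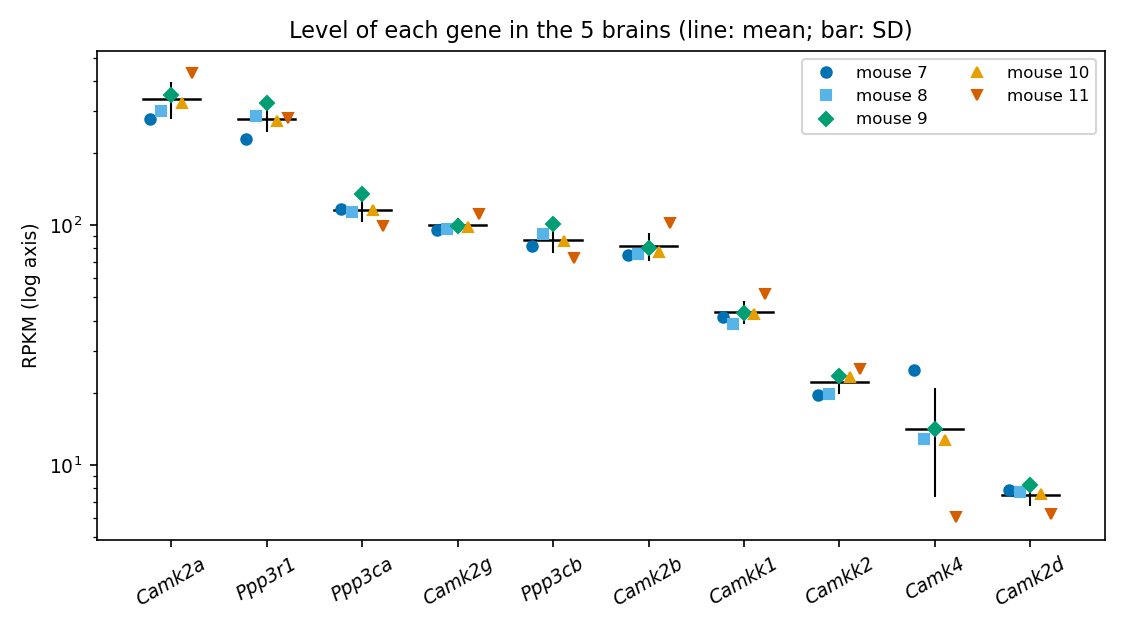
Level of each of the 10 genes in RPKM (log axis), ordered by mean; coloured symbols are the 5 mice, the horizontal line is the mean and the vertical bar the SD. The lowest value of Ppp3r1 is 229 RPKM and that of Camk2a 277, and Camk4 has the widest spread, from 24.8 RPKM in mouse 7 to 6.04 in mouse 11.

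Of the 9 pairs of neighbours in this order, 4 kept their order in every mouse: Camk2a over Ppp3r1, Ppp3r1 over Ppp3ca, Camk2b over Camkk1 and Camkk1 over Camkk2. Each of these 4 reached p = 0.062 in a sign-flip permutation test (exact, two-sided) of the log2 ratio over the 5 mice, the smallest value that 5 mice allow, so that no pair could pass a threshold of 0.05. Over all 45 pairs of the 10 genes, 39 had one direction in 5 of 5 mice, and the smallest adjusted p (Benjamini-Hochberg, exact permutation test) was 0.0721. The neighbours from Ppp3ca down to Camk2b did not differ beyond their spread. The log2 ratio of Ppp3ca to Camk2g was 0.20 ± 0.23, that of Camk2g to Ppp3cb 0.21 ± 0.24 and that of Ppp3cb to Camk2b 0.08 ± 0.32, each with 1 mouse going the other way. Camkk2 was above Camk4 in 4 of 5 mice (log2 ratio 0.74 ± 0.79), and Camk4 above Camk2d in 4 of 5 (0.71 ± 0.56).

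These levels depend on the gene length that the authors used, and for 3 genes that length differed from the GENCODE M21 annotation. The deposited values imply 12331 bases for Camk4 against 3259 in M21, 3703 against 6401 for Camk2g and 6018 against 8809 for Ppp3cb, while the other 7 lengths were the same to within 1%. With the M21 lengths Camk4 would have 53.3 ± 25.6 RPKM, Camk2g 58.0 ± 3.86 and Ppp3cb 59.3 ± 7.11. Camk2b would then stand above Ppp3cb and Camk2g, and Camk4 above Camkk1 and Camkk2. As measured, differences between mice within a gene do not depend on its length. Those left after the removal of length trends, a step explained further on, do use the authors' length. The effect of M21 lengths on them was not tested.

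All 10 genes are protein-coding. In the GRCm38 genome with GENCODE M21, Camk2a (ENSMUSG00000024617) lies on chromosome 18 from 60925618 to 60988152 and Camk4 (ENSMUSG00000038128) on the same chromosome from 32934931 to 33191228, both on the forward strand. Camk2b (ENSMUSG00000057897) lies on the reverse strand of chromosome 11 from 5969644 to 6066362. Also on chromosome 11, on the forward strand, are Ppp3r1 (ENSMUSG00000033953) from 17159263 to 17200375 and Camkk1 (ENSMUSG00000020785) from 73019008 to 73042073. Camk2d (ENSMUSG00000053819) and Ppp3ca (ENSMUSG00000028161) lie on the forward strand of chromosome 3, from 126596302 to 126846326 and from 136670124 to 136937727. Ppp3cb (ENSMUSG00000021816) and Camk2g (ENSMUSG00000021820) are near each other on the reverse strand of chromosome 14, from 20499364 to 20546573 and from 20734875 to 20794088. Camkk2 (ENSMUSG00000029471) lies on the reverse strand of chromosome 5 from 122731170 to 122779409. Camk2d overlaps 8 other annotated genes, whose mean counts add up to 2.20% of its own, and for the other 9 genes this share was at most 0.592%.

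The 4 CaMKII genes summed to 456, 480, 537, 507 and 652 RPKM in mice 7 to 11. Camk2a supplied 60.8, 62.6, 65.01, 64.0 and 66.3% of this sum, a mean of 63.7% ± 2.12. Camk2g, whose subunit is found in many tissues, supplied 19.2% ± 1.47, and Camk2b, the beta subunit that binds actin in neurons, 15.6% ± 0.581. Camk2d, the delta form best known from heart, supplied 1.46% ± 0.297: 1.73, 1.60, 1.53, 1.49 and 0.954% in mice 7 to 11. Camk2a exceeded Camk2b by 3.70, 3.98, 4.35, 4.21 and 4.25-fold in mice 7 to 11. This ratio of the alpha to the beta form had a small spread (log2 ratio 2.02 ± 0.10), although each of the 2 genes varied more than that by itself. With M21 lengths Camk2g would supply 12.1% ± 1.01, less than Camk2b with 17.0% ± 0.71, and Camk2a 69.3% ± 1.85. By the authors' lengths Camk2g was above Camk2b by 1.10-fold in mouse 11 and by 1.24 to 1.28-fold in the others.

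**Figure D2:**
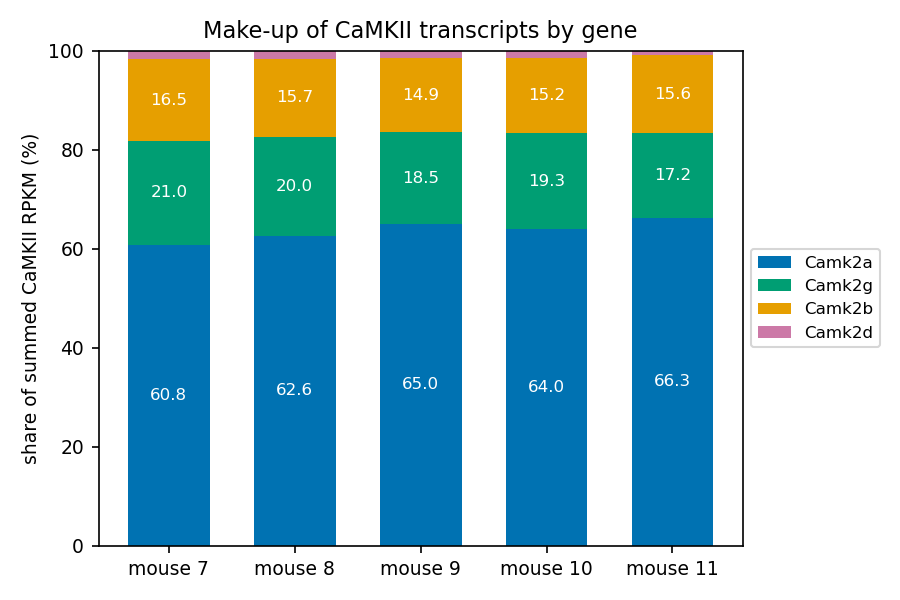
Share of each CaMKII gene in the summed CaMKII RPKM (bars, percent) in each of the 5 mice. Camk2a makes up 60.8 to 66.3% in every mouse, and Camk2d, the unlabelled uppermost band, 0.954 to 1.73%.

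Levels of the CaMKII genes in each mouse showed mouse 11 above the others for 3 of the 4. Camk2a had 2068, 2244, 2606, 2420 and 3225 CPM in mice 7 to 11, so that its highest value was 1.56 times its lowest. Camk2b had 684, 690, 732, 703 and 928 CPM: 4 mice lay close together, and mouse 11 stood apart. Camk2g showed the same arrangement within a narrower range, with 355, 356, 368, 363 and 415 CPM and a coefficient of variation of 6.65%, the smallest of the 10 genes. Camk2d went the other way, with 177, 173, 185 and 170 CPM in mice 7 to 10 and 140 in mouse 11. None of the 4 was called variable, in a test that on simulated counts found only far larger differences than these: in edgeR's quasi-likelihood fit the adjusted p was 0.987 for Camk2a, 0.994 for Camk2b and 0.999 for both Camk2g and Camk2d.

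Both CaMKK genes were also highest in mouse 11. Camkk1 had 154, 145, 161, 159 and 192 CPM in mice 7 to 11. Camkk2 had 214, 215, 257, 255 and 275 CPM, so mice 7 and 8 were low and the other 3 lay apart from them. Per length, Camkk1 exceeded Camkk2 by 2.11, 1.97, 1.84, 1.82 and 2.05-fold in the 5 mice. Camkk1 thus supplied 66.1% ± 1.45 of the summed RPKM of the pair, a log2 ratio of 0.94 ± 0.09. Without the GC and length trends this log2 ratio was 1.16, 0.97, 0.92, 0.85 and 0.79 in mice 7 to 11, with an SD of 0.14. The adjusted p for variation between mice in edgeR's quasi-likelihood fit was 0.994 for each.

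The 3 calcineurin genes were all highest in mouse 9, as was Camk2d, beside 12.8% of all genes tested. Ppp3ca, the A-alpha catalytic subunit that predominates in neurons, had 1168, 1134, 1352, 1151 and 990 CPM in mice 7 to 11. Ppp3cb, the A-beta subunit, had 494, 551, 607, 520 and 440 CPM. Ppp3ca and Ppp3cb were both lowest in mouse 11, where both CaMKK genes and 3 CaMKII genes were highest. Ppp3r1 had 739, 923, 1043, 876 and 905 CPM, and was lowest in mouse 7. Ppp3ca supplied 58.8, 55.4, 57.3, 57.2 and 57.6% of the summed RPKM of Ppp3ca and Ppp3cb, a mean of 57.2% ± 1.23. The further catalytic gene Ppp3cc is not among the 10 and was left out of this sum. It had 12.7 ± 1.28 RPKM. The log2 ratio of Ppp3ca to Ppp3cb was 0.42 ± 0.07 as measured. With the GC and length trend of each mouse's library taken out, a step explained further on, its SD was 0.13, and the ratio was 0.65, 0.34, 0.40, 0.37 and 0.33 in mice 7 to 11. With M21 lengths the share of Ppp3ca would be 66.2% ± 1.12. Ppp3r1 exceeded Ppp3ca by 1.96-fold in mouse 7, 2.35 to 2.51-fold in mice 8, 9 and 10 and 2.83-fold in mouse 11. In edgeR's quasi-likelihood fit the adjusted p was 0.998 for Ppp3ca and 0.994 for Ppp3cb and for Ppp3r1.

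The promoters were read for base composition and a few known motifs. RefSeq promoters on GRCm38.p6 were matched for 6 of the 10 genes, and the 250 bases before the RefSeq start were searched on both strands. Those of 1 CaMKII and 1 CaMKK gene are shown, 5′ to 3′ on the gene's strand, with every GC box (GGGCGG or its complement CCGCCC) in capitals. They hold 3 and 2 boxes, counting copies that share a letter. The window of Camk2b is chr11:6065749-6065998 on the reverse strand. It lies inside the M21 gene, which begins further upstream than the RefSeq one, and overlaps none of its M21 exons. The window of Camkk1 is chr11:73018738-73018987 on the forward strand, before the start in both annotations, and reaches into the noncoding gene 4732414G09Rik of the other strand.
Camk2b: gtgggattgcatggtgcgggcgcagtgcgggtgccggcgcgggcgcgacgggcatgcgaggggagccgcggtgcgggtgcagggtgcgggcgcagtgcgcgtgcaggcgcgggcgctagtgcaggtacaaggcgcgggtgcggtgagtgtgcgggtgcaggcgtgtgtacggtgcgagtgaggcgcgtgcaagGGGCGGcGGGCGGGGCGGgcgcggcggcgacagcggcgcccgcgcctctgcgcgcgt
Camkk1: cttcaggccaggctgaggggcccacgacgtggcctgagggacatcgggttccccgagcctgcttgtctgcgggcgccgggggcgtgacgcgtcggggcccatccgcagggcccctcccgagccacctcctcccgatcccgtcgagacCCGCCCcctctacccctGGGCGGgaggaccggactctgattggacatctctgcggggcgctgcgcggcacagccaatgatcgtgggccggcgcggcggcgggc

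These windows had 78.4 and 74.4% GC, in that order, and 44 and 29 CG dinucleotides. The median over the 6 matched promoters was 71.6%, and 52.4% over 32851 promoters. In Ppp3r1 the last 35 of the 250 bases belong to the first exon in M21; the 215 before them had 67.4% GC and 0 GC boxes, and all 4 boxes of that gene lie in the exon. The transcript of Ppp3r1 has 41.4% GC. The GC box was present in 6 of 6 windows taken from the RefSeq start (in 32.7% of all promoters) and the TATA box TATAAA in 0 of 6 (12.4%). The cyclic AMP response element TGACGTCA, the site that CREB binds, was in 0 of 6 (1.55%), and its half-site TGACG in Camkk1 and Ppp3r1 (17.8%). The CCAAT box, read as CCAAT or ATTGG, was found at 2 places in Camkk1 and in none of the other 5 (33.8%). These matches describe the letters only.

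Kinase and phosphatase were set against each other by the ratio of Camk2a to Ppp3ca. It was 2.37, 2.64, 2.58 and 2.81 in mice 7 to 10 and 4.36 in mouse 11, with a log2 ratio of 1.52 ± 0.34. Camk2a was the higher in 5 of 5 mice (exact sign-flip permutation test, p = 0.062). Once the dependence of each library on GC content and length was removed, the log2 ratio was 1.51, 1.53, 1.46, 1.49 and 1.59 in mice 7 to 11. Its SD fell from 0.34 to 0.05, and mouse 11 no longer stood apart. This was the largest fall among the 8 ratios examined in this way. The SD of the log2 ratio also fell for Camkk2 to Camk4 (0.79 to 0.63) and for Camk2a to Camk2b (0.10 to 0.09). It rose for Ppp3ca to Ppp3cb and for Camkk1 to Camkk2, as given with those genes. It rose too for Camk2g to Camk2d (0.22 to 0.24) and Ppp3r1 to Ppp3ca (0.19 to 0.23), and stayed at 0.09 for Camk2g to Camk2b.

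Camk4 differed most between the mice. It had 306 CPM in mouse 7, 158, 174 and 157 in mice 8, 9 and 10, and 74.5 in mouse 11, from 4752, 2430, 2726, 2520 and 1395 counts. Mouse 7 and mouse 11 thus lay on either side of 3 closely placed mice, and the highest level was 4.10 times the lowest. The coefficient of variation was 47.9%, against 6.65 to 17.7% for the other 9 genes. On the log2 CPM scale, with libraries scaled by TMM (edgeR's trimmed mean of M values), its SD was 0.71, and 34 of the 3919 genes whose mean count reached 1000 had a larger one (0.868%). Over all 16318 genes tested, most of them with fewer counts, 1291 had a larger SD (7.91%). In edgeR's quasi-likelihood fit across all genes, Camk4 had an unadjusted p of 0.00745. It was the only one of the 10 genes to reach the unadjusted threshold, which 4.99% of all genes tested reached. Its adjusted p was 0.970 by edgeR.

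**Figure D3:**
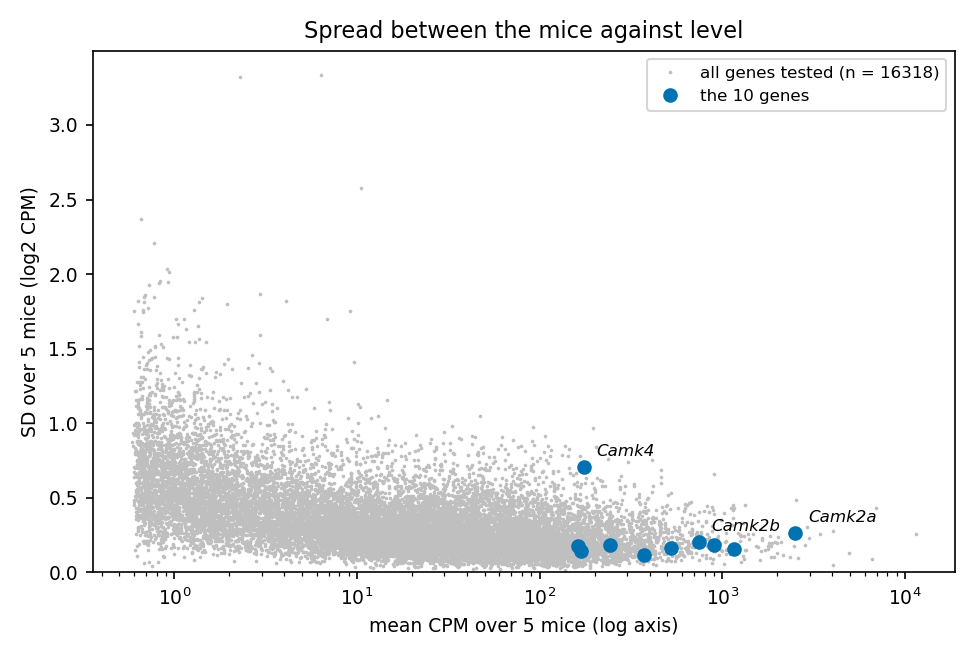
SD over the 5 mice of log2 CPM against mean CPM (log axis) for the 16318 genes tested (grey) and the 10 genes (blue). Camk4, at 0.71, lies above most genes of its level, and the other 9 lie between 0.11 and 0.27.

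No gene was called variable at an adjusted p of 0.05: 0 of the 10 and 0 of all 16318 (0%), where 814 of all genes had an unadjusted p under 0.05. On simulated counts with the spread of the real genes, differences were planted as a rise in 1 mouse. The test missed all those of about the ratio between the highest and lowest level of Camk4. The pattern of Camk4 differs in shape, with 1 mouse high and another low. A gene not called is therefore not shown to be constant. Without the filter on low counts 229 of 28335 genes (0.808%) were called, and Camk4 was among them with an adjusted p of 0.0130 in edgeR's quasi-likelihood fit, against 0.329 to 0.984 under the other alternatives. No other member was called in that fit. The median SD of log2 CPM was 0.18 for the 10 genes, 0.30 for all genes tested and 0.21 for those with a mean count of 1000 or more, as all 10 have. With GC and length trends removed it was 0.19 for the 10 genes and 0.23 for all genes tested.

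Which mouse was highest went with the GC content of the gene. The 5 genes highest in mouse 11 (Camk2a, Camk2b, Camk2g, Camkk1 and Camkk2) had 51.8 to 55.2% GC in their longest annotated transcript, and the other 5 had 39.8 to 48.2%. Among all 16318 genes tested, 33.0% were highest in mouse 11, 26.4% in mouse 7 and 12.8% in mouse 9. The share highest in mouse 11 was 61.5% of 7604 genes with at least 50% GC and 8.09% of 8660 genes below that. Lowest in mouse 11 were Camk2d, Camk4, Ppp3ca and Ppp3cb, as were 36.6% of all genes and 59.9% of those under 50% GC. The dependence on this GC content and on the authors' gene length was then fitted in each library and removed. For Camk4, Camk2g and Ppp3cb the GC content and the length come from differing gene models.

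**Figure D4:**
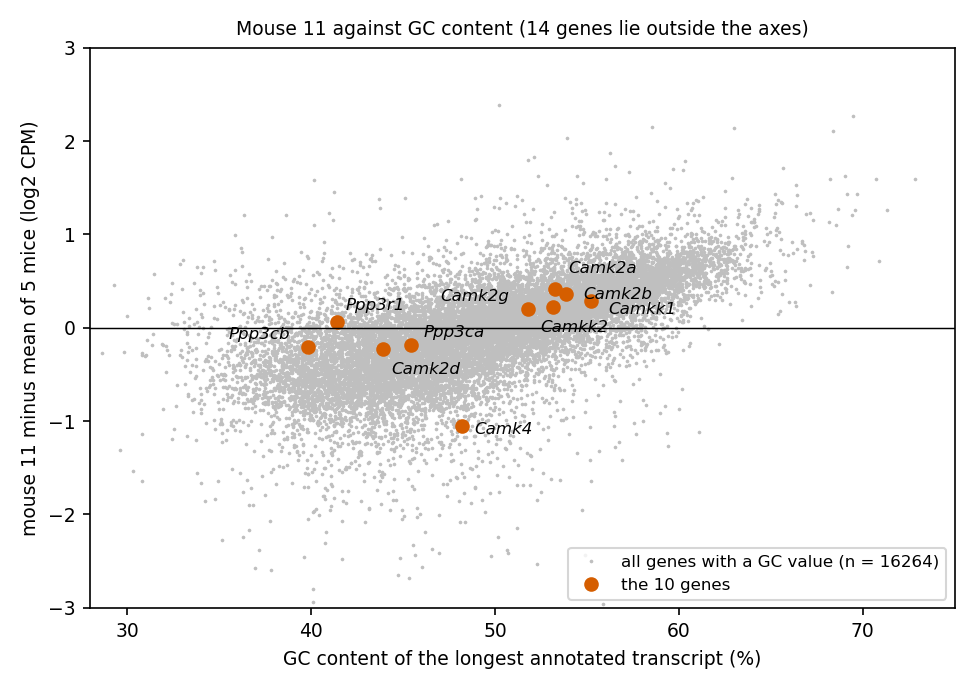
Log2 CPM of mouse 11 minus the mean of the 5 mice against the GC content of the longest annotated transcript, for 16264 genes (grey) and the 10 genes (orange). The median is 0.30 for genes of at least 50% GC and -0.29 for those below, 14 genes fall outside the axes, and Camk4 is the lowest of the 10 genes at -1.05.

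Once each library's GC and length trend was taken out, the calcineurin genes changed places. Ppp3r1 then stood at 0.49 in mouse 11 and at -0.58 in mouse 7 (log2 difference from the mean of the 5 mice, with TMM-scaled libraries), against 0.06 and -0.28 before. Ppp3cb moved from -0.20 to 0.29 in mouse 11 and from -0.08 to -0.46 in mouse 7. Ppp3ca moved from -0.18 to 0.20 and from 0.01 to -0.23 in the same mice. Camk2d likewise moved from -0.23 to 0.32 in mouse 11. The removal widened the spread of these genes. The SD of log2 CPM rose from 0.19 to 0.40 for Ppp3r1 and from 0.16 to 0.29 for Ppp3cb. It rose from 0.16 to 0.19 for Ppp3ca and from 0.14 to 0.26 for Camk2d. For the rest of the 10 genes the SD fell, as did the median over all genes tested, from 0.30 to 0.23. Whether the fitted trends suit the genes with a wider spread was not tested. Camk2a moved from 0.41 to 0.28 in mouse 11 and from -0.27 to -0.24 in mouse 7. Camk2b moved from 0.36 to 0.21 in mouse 11, and its lowest mouse was mouse 8 before, at -0.13, and mouse 7 after, at -0.12. The value of Camkk1 in mouse 11 went from 0.29 to -0.02. In all, 7 of the 10 genes were highest in mouse 11 once the trends were removed, against 30.5% of all genes tested, and 7 were lowest in mouse 7, against 30.3%. As measured, 5 of the 10 were lowest in mouse 7 by CPM (Camk2a, Camk2b, Camk2g, Camkk2 and Ppp3r1), against 22.8% of all genes. For 3 of these, Camk2b, Camk2g and Camkk2, the lowest mouse was mouse 8 when libraries were scaled by TMM or DESeq2 size factors. Mice 7 and 8 lay within counting error of each other for these 3 genes.

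Camk4 kept the largest spread of the 10 genes after this removal. It stood at 0.81 in mouse 7 and -0.81 in mouse 11, against 0.95 and -1.05 before, and its SD went from 0.71 to 0.58. The GC content used for Camk4 is that of an M21 transcript that is shorter than the model the authors counted, and the effect of this was not tested. Its 3 nearest genes by pattern were 5330434G04Rik, A130050O07Rik and Usp15, a ubiquitin-specific protease, with root mean square differences of 0.06, 0.06 and 0.07 in log2 CPM over the 5 mice, where the median over 16317 genes was 0.69. They had 40.6, 41.1 and 42.3% GC. For Camk2a the nearest were Trnp1, Pip4k2c and Fam163b, each at 0.03 where the median was 0.33, with 65.2, 53.4 and 57.2% GC.

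**Figure D5:**
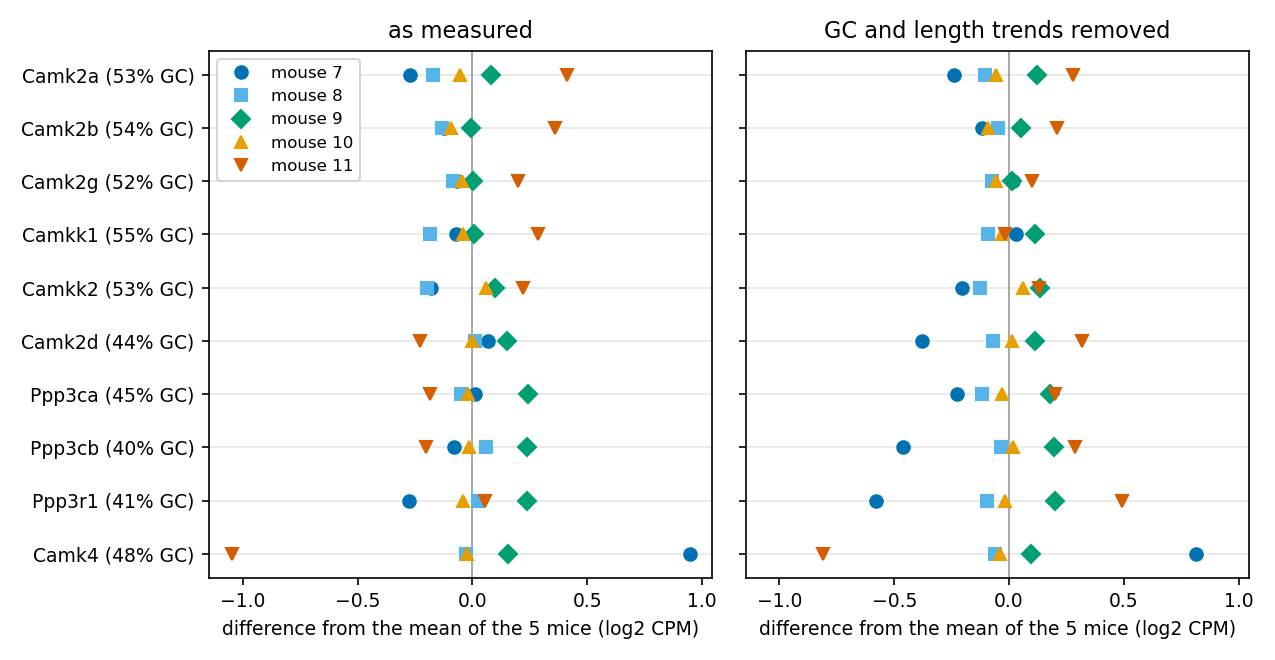
Log2 CPM of each mouse minus the mean of the 5 mice, as measured (left) and with the GC and length trends of each library removed (right), with the GC content of each gene. The calcineurin genes and Camk2d have mouse 11 at the right end only after removal, and Camk4 keeps mouse 7 and mouse 11 at its 2 ends in both.

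Marker genes of other cell types and regions were set beside these differences. The 10 markers of forebrain excitatory neurons, in which Camk2a is typically expressed, summed to 1348, 1381, 1624, 1622 and 2282 CPM in mice 7 to 11, with 8 of 10 highest in mouse 11, the mouse with most Camk2a, beside 33.0% of all genes. Of the 10, 6 have at least 50% GC and all 6 were highest in mouse 11, as were 61.5% of all genes of that class, and 2 of the other 4 were. Markers of inhibitory neurons were highest in mouse 11 for 6 of 10, of microglia for 5 of 8 and of the choroid plexus for 4 of 6. Other lists had lower shares there: 4 of 10 pan-neuronal, 3 of 8 astrocyte, 3 of 8 oligodendrocyte, 2 of 7 endothelial and 2 of 12 cerebellar markers. Of the pan-neuronal markers, 5 of 10 were lowest in mouse 11. These lists were not divided by GC content. The 12 cerebellar markers summed to 285, 207, 197, 386 and 221 CPM, with Cbln3 and Gabra6 at 0 in at least 1 library. The sum hides unlike members. Fat2 had 10.3, 1.36, 0.957, 39.8 and 0.481 CPM in mice 7 to 11, and Cbln3 5.85, 0.325, 0, 24.4 and 1.18. Calb1, a large part of the sum, had 137, 93.3, 94.7, 102 and 65.3. Of the 12, 5 had an unadjusted p under 0.05 in edgeR's quasi-likelihood fit, beside 4.99% of all genes. Camk4 is known to be expressed by cerebellar granule cells. Mouse 10, with the highest cerebellar sum, had 157 CPM of Camk4, and mouse 7, with the highest Camk4, had the second highest cerebellar sum. The 8 astrocyte markers ranged from 4159 CPM in mouse 11 to 5966 in mouse 9, and the 8 oligodendrocyte markers from 4223 CPM in mouse 9 to 5820 in mouse 8. Neuronal activity genes such as Fos, Egr1 and Arc summed to 328 CPM in mouse 7 and to 492 to 731 in the others. Of these genes, 8 of 10 were lowest in mouse 7, beside 22.8% of all genes. Whether these differences in tissue make-up or activity have a part in the levels of the 10 genes was not tested.

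The wider pathway was described with 8 lists of 85 further genes, of which 84 could be tested. None of the 84 was called variable, and 4 had an unadjusted p under 0.05 in edgeR's quasi-likelihood fit (4.76%, beside 4.99% of all genes). They were Nrgn, Creb1, Gria2 and Shank3. As for the 10 genes, the absence of a call does not show that a gene was constant. Of these, Nrgn, Creb1 and Gria2 had the largest SD of their lists, and Shank3 was singled out after its values were seen.

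Among calmodulin and the proteins that hold it in neurons, Calm2 (calmodulin) had the highest level, 661 ± 93.4 RPKM. Nrgn, which binds calmodulin when calcium is low, had 211, 240, 202, 231 and 454 RPKM in mice 7 to 11 and thus stood apart in mouse 11; its SD of log2 CPM was 0.49, and 0.20 without the trends. Pcp4, another calmodulin-binding protein, was the lowest of its list with 68.1 ± 9.19 RPKM. Among the other calmodulin-regulated kinases and their inhibitors, Camk2n1, an inhibitor of CaMKII, had both the highest level and the largest SD. It had 147 RPKM in mouse 7 and 255, 275, 284 and 324 in mice 8 to 11, with an SD of log2 CPM of 0.45, or 0.38 without the trends. Mouse 7, with the lowest Camk2a, was thus also lowest in this inhibitor. Phkg1, a phosphorylase kinase subunit, was lowest of that list with 2.03 ± 0.163 RPKM.

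Among partners of calcineurin, Fkbp1a, the binding protein of the drug FK506, had the highest level with 141 ± 25.2 RPKM, and the anchoring protein Akap5 the lowest among the genes tested, with 12.2 ± 1.62. Ppp1r1b, the striatal phosphatase inhibitor DARPP-32, which calcineurin dephosphorylates, had 44.1, 54.1, 53.5, 54.98 and 88.2 RPKM in mice 7 to 11. Ppp3r2, the alternative B subunit, had too few counts to be tested and was at 0 in at least 1 library. Among vesicle recycling proteins that calcineurin dephosphorylates, dynamin 1 (Dnm1) had 266 ± 41.0 RPKM and Dnm3 15.2 ± 1.87, while Pacsin1 had the largest SD, its other 4 mice lying from 53.5 to 61.3 RPKM and mouse 11 at 87.5. Among phosphatases of CaM kinases and related catalytic subunits, Ppp2ca had 62.8 ± 8.78 RPKM, Ppp1cc 20.8 ± 2.77 and Ppp1ca 36.5 ± 6.24.

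Among the transcription targets, Creb1, the CREB gene itself, had 6.70 RPKM in mouse 7, 3.32 to 3.66 in mice 8, 9 and 10 and 2.44 in mouse 11. These mice stood in the same places as for Camk4, but the SD of Creb1 fell from 0.52 to 0.21 once the trends were removed; its transcript has 39.6% GC. Mef2d had the highest level of that list with 48.1 ± 9.50 RPKM and Nfatc4 the lowest with 0.435 ± 0.108. Among synaptic partners of CaMKII, Syn1 (synapsin) had 223 ± 47.5 RPKM and the actin crosslinker Actn2 6.23 ± 0.601. Gria2, an AMPA receptor subunit, had 53.3, 30.4, 31.5, 28.7 and 19.05 RPKM in mice 7 to 11, with 36.8% GC and an SD that went from 0.52 to 0.13 without the trends. Shank3, a scaffold of the postsynaptic density with 62.4% GC, was the reverse, with 15.1, 15.04, 14.2, 17.5 and 31.2 RPKM in mice 7 to 11, and its SD went from 0.49 to 0.14. Among kinases downstream of CaMKK, Akt1 had the highest level with 44.3 ± 9.48 RPKM, and the AMPK subunit gene Prkab1 the lowest with 5.10 ± 1.29 and the largest SD.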

How the data were processed

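RNA was measured in 1 brain sample from each of 5 mice. The authors deposited raw counts per gene and RPKM. CASAVA 1.7, STAR 2.4.1d, featureCounts 1.4.6-p4 and GRCm38 are named in the submitters' processing notes. The annotation release and strand setting are not given in the sources used here. The deposited RPKM could not be compared between mice as they stand: for 0 of 12729 genes checked did they fit the library's own total, and for 12729 they fitted the 5 totals taken in turn down each column. RPKM was therefore recomputed from the counts with each library's own total and the gene length that the deposited counts and RPKM imply, to within 1%.

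Variation between mice was tested with edgeR 4.0.16 (R 4.3.3) on genes whose mean count reached 10: an intercept was fitted with TMM scaling, and the quasi-likelihood dispersion of each gene was set against the F distribution that limma fits along expression (version 3.58.1), with Benjamini-Hochberg adjustment over all genes tested and a threshold of 0.05. The procedure was tested on simulated data, and gene-to-gene spread of dispersion was added to that simulation after the real counts had given 0 calls. With that spread the test recovered only the larger of its planted sizes, which is far beyond any difference among the 10 genes. Level ratios used log2(RPKM + 1) and a sign-flip permutation test (exact, two-sided). GC and length trends were natural splines with 4 degrees of freedom in each library. Size factors of DESeq2 1.42.0 served as an alternative scaling.

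The 10 genes and all lists were chosen with earlier results of these data known. From each pathway list the genes of highest and lowest level and of largest SD were named, and for Camk2a and the gene of largest SD the 3 genes nearest in pattern. The GC limit of 50%, the comparison with genes of at least 1000 counts, the ratio of Camk2a to Ppp3ca, the mice singled out and the promoters printed were chosen after values were seen.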

Additional observations from a re-analysis of the deposited data

Results flagged for a closer look

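Among 24 values examined for a mouse far from the other 4 (a gap divided by the range above Dixon's 95% critical value of 0.71), 5 stood out, all in mouse 11. Chance alone marks about 1 in 20 groups, and the 5 are not independent, since they share genes and the mouse. Camk2b had 928.1 CPM there, and Camk2g 414.6 CPM. The log2 ratio of Camk2g to Camk2b was lowest there, at 0.14. The log2 ratio of Camk2g to Camk2d was highest there, at 3.97, and so was that of Camk2a to Ppp3ca, at 2.11. With GC and length trends removed, the log2 ratio of Camk2g to Camk2d in mouse 11 was 3.33, the lowest of the 5.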

How the results depend on the processing

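Without the filter on low counts, 229 genes were called variable in place of 0, and 1 of the 10 genes in place of 0, Camk4 with an adjusted p of 0.0130 by edgeR; the cause was not tested. Leaving out each mouse in turn called 0 genes, as did the other alternatives. With M21 exon lengths the mean RPKM was 58.0 for Camk2g, 53.3 for Camk4 and 59.3 for Ppp3cb, and the log2 ratio of Camk2g to Camk2b became -0.48 and that of Camkk2 to Camk4 -1.10, because the length enters the value directly. Of 90 levels under alternatives 87 moved by less than 1 SD, and of 96 ratios 94 kept their direction and side of the threshold. Much of this agreement between ratios was fixed in advance. No ratio could cross the threshold, because the test cannot reach it with so few mice. Removal of the trends leaves the mean of each ratio unchanged, and TMM or DESeq2 scaling nearly cancels within a ratio. The count of ratios is therefore no measure of robustness for these settings. The ratios with trends removed were chosen after seeing the data. No paired analysis was possible because there is only 1 group. Ratio tests over 5 mice cannot go below 0.062, or 0.125 over 4, so they say nothing about stability. Depth was not the limit for the 10 genes, the lowest of which had 1395 counts in a library.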
